A study of Drosophila melanogaster with 6 samples.

Results

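The genes described here encode the subunits of the vacuolar proton pump of Drosophila melanogaster. They were chosen as every gene in the deposited count table whose name begins with Vha, which gave 32 of 17208 genes. RNA from whole embryos aged 16-20 h was compared between ft null embryos, of genotype ft fd5-5/ft X13 (4 libraries), and w1118 embryos (2 libraries), the wild type of the study, which is mutant for white, a gene of eye colour. Embryos were collected and aged at 25 °C on grape agar. The series calls the allele pair null for ft, which encodes the giant cadherin Fat. An effect of the ft alleles and one of strain background or of developmental stage within the 4 h window cannot be told apart in any comparison below. Separate collections are not stated for the libraries, and p-values therefore reflect the scatter among these libraries alone, possibly technical. Totals lay between 21261928 and 29151981 estimated counts per library.

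The pump, or V-ATPase, is a rotary machine built of a peripheral V1 sector, which splits ATP, and a membrane-embedded V0 sector, which carries protons across the membrane. It acidifies endosomes, lysosomes and synaptic vesicles in all animals. In insect epithelia such as the Malpighian tubule, the kidney-like organ of the fly, it also sits in the apical plasma membrane and drives ion and fluid transport. Drosophila encodes several subunits by families of paralogs. One paralog per subunit forms the set known from tubule and other epithelial expression as the plasma membrane type. Of the 32 genes, 13 belong to that set, 18 are other paralogs and 1, VhaAC45, encodes an accessory protein. The subunits B, C, E, G and H have 1 gene each, so for these 5 the plasma membrane type gene also serves every other compartment, and its reads cannot be assigned to a membrane.

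The 13 plasma membrane type genes were transcribed at high levels in both genotypes, whereas 11 of the 18 other paralogs were close to 0. Levels between genes are compared as CPM per kb, reads scaled to a common library size (counts per 1e+06, with TMM library factors) divided by the length of the gene's exons in kilobases. The highest level was that of Vha16-1, which encodes the c subunit of the proton-carrying rotor ring, with 1047 ± 143 CPM per kb in ft null (SD, n = 4) and 1196 ± 107 CPM per kb in w1118 (SD, n = 2). Vha68-2, the catalytic A subunit, followed with 849 ± 82.0 CPM per kb in ft null and 925 ± 37.7 CPM per kb in w1118. Vha55, the B subunit that alternates with A in the head of the enzyme, stood at 542 ± 41.2 CPM per kb in ft null and 628 ± 28.6 CPM per kb in w1118. These 3 genes kept this order in both genotypes. They were higher than 99.7%, 99.6% and 99.3% of the 11508 tested genes that have an annotated length.

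The remaining V0 genes covered a wide range. VhaPPA1-1, the c'' subunit of the rotor ring, averaged 460 ± 33.5 CPM per kb in ft null and 519 ± 45.2 CPM per kb in w1118. VhaAC39-1, the d subunit that joins ring and shaft, averaged 353 ± 29.6 CPM per kb in ft null and 394 ± 13.2 CPM per kb in w1118. Vha100-2, the a subunit that holds the proton path, averaged 288 ± 45.7 CPM per kb in ft null and 363 ± 66.0 CPM per kb in w1118. VhaM9.7-b, the small e subunit, had 125 ± 15.8 CPM per kb in ft null and 116 ± 32.5 CPM per kb in w1118. VhaAC45, the accessory gene, was at 320 ± 27.7 CPM per kb in ft null and 389 ± 43.6 CPM per kb in w1118, within the range of the core subunits.

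In V1, the peripheral stalk gene Vha26 (subunit E) averaged 413 ± 55.8 CPM per kb in ft null and 488 ± 48.0 CPM per kb in w1118. Its stalk partner Vha13 (subunit G) averaged 296 ± 22.3 CPM per kb in ft null and 297 ± 57.7 CPM per kb in w1118. VhaSFD (subunit H, which regulates the enzyme), Vha36-1 (subunit D of the rotor shaft) and Vha14-1 (subunit F of the shaft) were neighbours in this order, at 232 ± 29.02, 232 ± 23.2 and 231 ± 22.8 CPM per kb in ft null, where they did not differ beyond their SDs. In w1118 they stood at 277 ± 6.28, 243 ± 14.8 and 220 ± 61.9 CPM per kb, where VhaSFD lay above Vha36-1 by more than their SDs. Vha44 (subunit C, which clamps the stalks) had 102 ± 16.2 CPM per kb in ft null and 118 ± 4.12 CPM per kb in w1118, the lowest of the leading genes in ft null and next to VhaM9.7-b in w1118. From the first to the last of the 14 leading genes the mean level differed 10.3-fold in each genotype. Much of that order rests on the annotated length. Divided by its shortest transcript (1431 bases) instead of all its exons (4023 bases), Vha44 stood at 286 and 333 CPM per kb in ft null and w1118. It moved to place 11 in ft null, and VhaM9.7-b was then the lowest with 217 and 201 CPM per kb. By the same division Vha26 passed VhaPPA1-1 in ft null (557 against 462 CPM per kb). VhaSFD then stood at 305 and Vha36-1 at 232 CPM per kb in ft null.

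**Figure D1:**
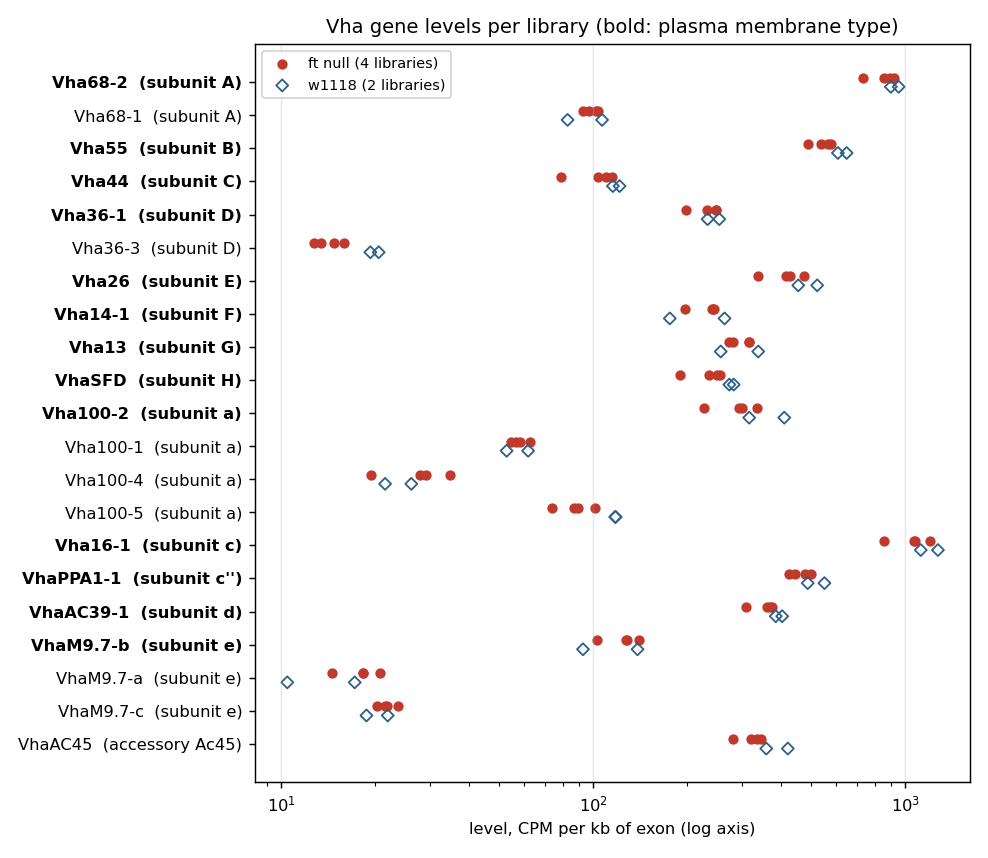
Level of each of the 21 tested Vha genes in CPM per kb of exon (log axis), with 1 point per library, filled circles for ft null (n = 4) and open diamonds for w1118 (n = 2), and plasma membrane type names in bold. The 13 plasma membrane type genes hold the highest level of their subunit, and Vha36-3 and Vha100-5 are other paralogs whose ft null and w1118 points do not overlap.

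The 11 near-silent paralogs were Vha100-3, Vha16-2, Vha16-3, Vha16-4, Vha16-5, VhaPPA1-2, VhaAC39-2, VhaM9.7-d, Vha68-3, Vha36-2 and Vha14-2. None exceeded 9 reads in any library, and together they held 75 reads over the 4 ft null libraries and 27 reads over the 2 w1118 libraries. A count of 0 allows up to 3 counts, or 0.0975 to 0.143 CPM depending on the library, an upper limit that covers counting error only. Many of these paralogs are known from adult testis. Genes of spermatocytes and spermatids (aly, can, sa, dj, Mst84Da, Mst84Db and Mst98Ca) were likewise low, with at most 12 reads in a library and 64 reads over ft null and 39 reads over w1118. VhaAC39-2 had 3, 0, 2 and 6 reads in ft null libraries and 0 and 0 reads in w1118. Vha68-3 had 0, 1, 8 and 2 reads in ft null and 2 and 0 reads in w1118. No comparison between genotypes is possible at such counts, and the 11 genes did not enter the test.

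Some Vha paralogs lay side by side in the genome (dm6 coordinates, Ensembl annotation), among them near-silent genes next to highly expressed ones. On 2L, Vha68-2 (12974322 to 12978607) was followed after 178 bases by Vha68-3 (12978786 to 12981293), and Vha68-1 lay 19476 bases further on the opposite strand. On 3R, Vha100-4 (18386841 to 18389805) and Vha100-2 (18390323 to 18399169) were separated by 517 bases on the same strand, and VhaPPA1-2 by 2052 bases from VhaPPA1-1. Vha16-3 and Vha16-2, neighbours on 3L with a gap of 985 bases, were both at 0 or 1 read in every library. Salmon shares reads between similar transcripts by a model, which adds an uncertainty between paralogs that the counts do not show.

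The plasma membrane type made up nearly all subunit transcripts in every library, in part by definition, since the 5 single-gene subunits count wholly toward it. Its share of the summed CPM per kb of the 31 core subunit genes was 93.6%, 94.0%, 94.3% and 94.2% in ft null and 94.4% and 94.2% in w1118. The mean was 94.0% ± 0.291 in ft null (SD, n = 4) and 94.3% ± 0.136 in w1118 (SD, n = 2). The groups overlapped, and the difference was -0.294 percentage points. A two-sided exact permutation test over the 15 arrangements of the 6 libraries gave p = 0.333, but it cannot go below 0.0667 in this design and so could not reach 0.05. The share of w1118 replicate 2 fell inside the ft null range.

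Where paralogs shared a subunit, the plasma membrane type gene dominated to different degrees. For subunits c, c'', d and F it held over 99.9% of the per-kb level in each library, with Vha14-1 the lowest. For subunit A, Vha68-2 held 88.8% to 90.2% in ft null and 89.9% and 91.6% in w1118, and Vha68-1 held nearly all the rest. In the a subunit family, Vha100-2 held 59.2% to 63.8% in ft null and 62.2% and 66.5% in w1118. VhaM9.7-b held 72.8% to 77.2% of subunit e in ft null and 77.9% and 76.0% in w1118. The a subunit, which is known to direct the pump to particular membranes, was the most divided among its paralogs.

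The minor paralogs of subunits a, D and e showed the clearest shifts in share, given here as a description chosen after the values were seen. Vha36-3 made up 6.31%, 6.43%, 4.88% and 5.64% of subunit D in ft null and 7.49% and 7.67% in w1118, so that all ft null shares lay below both w1118 shares. Vha100-4 made up 5.08%, 5.86%, 6.25% and 6.62% of subunit a in ft null and 4.24% and 4.25% in w1118, with all ft null shares above both. VhaM9.7-a made up 10.3%, 10.9%, 10.8% and 11.4% of subunit e in ft null and 9.67% and 8.58% in w1118, again without overlap. A share also depends on the other paralogs of its subunit, and in CPM the groups overlapped for Vha100-4 and VhaM9.7-a. Over all tested genes, 16.4% had every ft null CPM value below both w1118 values, and 15.1% above both. These percentages are for CPM and not for shares within a subunit, for which no such background was computed. Vha100-5 held 18.7% to 19.3% of subunit a in ft null and 23.1% and 19.2% in w1118, and Vha68-1 9.78% to 11.2% of subunit A in ft null and 8.43% and 10.1% in w1118; for both genes the groups overlapped. Vha100-1, the paralog known from neurons, where it acts at synaptic vesicles, held 16.4% in ft null replicate 1 and 10.4% to 12.3% in the other ft null libraries, against 10.4% and 10.1% in w1118.

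**Figure D2:**
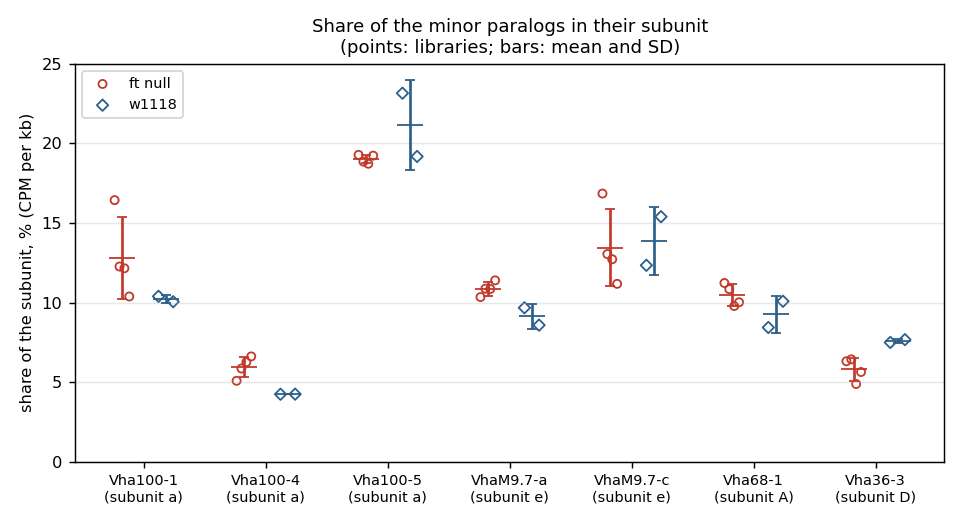
Share of 7 minor paralogs in the summed CPM per kb of their subunit, in percent, with 1 point per library (circles ft null, n = 4; diamonds w1118, n = 2), the mean as a line and the SD as bars. The ft null and w1118 points do not overlap for Vha36-3 (lower in ft null) or for Vha100-4 and VhaM9.7-a (higher in ft null). In CPM, the groups overlap for Vha100-4 and VhaM9.7-a.

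No Vha gene passed the genotype test, which asked whether transcript levels differed between ft null and w1118 embryos. Counts were tested with edgeR's quasi-likelihood test and p-values were adjusted over all 11542 genes, of which 2.15% were called higher and 2.15% lower in ft null at an adjusted p under 0.05, or 4.3% in either direction. Of the 32 Vha genes, 21 had enough reads to be tested, and 0 were called higher and 0 lower by edgeR. limma voom also called 0, and DESeq2 called 1 lower and 0 higher (all tested genes: 3.92% lower, 8.4% in either direction). At an unadjusted p under 0.05, 2 of the 21 were lower and 0 higher in edgeR, against 10.2% of all tested genes lower and 20.1% in either direction. For ft itself, the mutated gene, ft null libraries held 28.6, 28.98, 32.2 and 30.5 CPM, against 43.2 and 46.3 CPM in w1118, a log2 fold change of -0.57 (edgeR adjusted p = 0.0249).

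Both genes under an unadjusted 0.05 were other paralogs. Vha36-3 (FBgn0040377, X from 2579091 to 2580560, minus strand), a D subunit paralog, stood at 17.3, 20.6, 16.5 and 19.2 CPM in ft null, against 26.6 and 25.0 CPM in w1118. All 4 ft null values lay below both w1118 values. Its log2 fold change was -0.49 (SE 0.133, 95% interval -0.79 to -0.18, edgeR unadjusted p = 0.00634, adjusted p = 0.0848). DESeq2 called it (log2 fold change -0.49, adjusted p = 0.0386), and so did edgeR once a trend with exon length had been removed from each library (-0.54, adjusted p = 0.0436), an alternative added after the data were seen. Over the 14 alternative fits its log2 fold change ran from -0.55 to -0.44 and its adjusted p (edgeR, DESeq2 or limma voom) from 0.0386 to 0.300.

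Vha100-5 (FBgn0032373, 2L from 11738948 to 11744524, plus strand), an a subunit paralog, stood at 215, 261, 254 and 296 CPM in ft null, against 343 and 344 CPM in w1118. The groups did not overlap here either, although the ft null libraries spread widely while the w1118 libraries nearly coincided. The log2 fold change was -0.42 (SE 0.139, 95% interval -0.74 to -0.10, edgeR unadjusted p = 0.0158, adjusted p = 0.140). It was not called in any of 14 alternative fits, in which the adjusted p ran from 0.0763 to 0.324 over edgeR, limma voom and DESeq2. An annotated antisense RNA, asRNA:CR44144, covers 527 exonic bases of Vha100-5, or 18.1% of its exons. Strand is not kept by the kit, and reads of the shared bases cannot be told apart. The deposited estimates for the antisense RNA were 0.378 ± 0.0298 CPM in ft null and 1.03 ± 0.478 CPM in w1118, and its part in the Vha100-5 difference was not tested.

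None of the 13 plasma membrane type genes was called by edgeR, DESeq2 or limma voom, and none had an unadjusted p under 0.05 in edgeR. Of the 13, 11 had a log2 fold change below 0, against 48.1% of all tested genes. Their median was -0.17, beside 0.01 for all tested genes, and -0.08 without ft null replicate 1 and w1118 replicate 2. The median of the 8 V1 genes was -0.17 and that of the 5 V0 genes -0.17. The 95% interval of every one of the 13 included 0, with the lowest bound at -0.75 (Vha100-2) and the highest at 0.54 (VhaM9.7-b). All 4 ft null values lay below both w1118 values in 4 of the 13 (Vha55, VhaSFD, Vha44 and VhaAC39-1), against 16.4% of all tested genes, and in none of the 13 did they all lie above both (15.1% of all tested genes). The 7 tested other paralogs had a median of 0.06, with 5 above 0 and 2 below 0, and of -0.09 without w1118 replicate 1.

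The values per library show where the groups overlapped. Vha68-2, the catalytic subunit, was at 2020, 2356, 2461 and 2530 CPM in ft null, against 2479 and 2626 CPM in w1118, with ft null replicate 1 lowest and replicate 4 inside the w1118 range (log2 fold change -0.12, 95% interval -0.45 to 0.20). Vha16-1 was at 2624, 3269, 3305 and 3686 CPM in ft null, against 3447 and 3912 CPM in w1118, in the same arrangement (-0.19, -0.57 to 0.19). Vha55 was at 1354, 1579, 1499 and 1612 CPM in ft null, against 1694 and 1806 CPM in w1118, without overlap (-0.21, -0.51 to 0.08). The intervals of these 3 genes exclude a 2-fold change in either direction, but not a smaller one.

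The member of the set with the largest negative fold change, Vha100-2, was at 728, 962, 942 and 1082 CPM in ft null, against 1018 and 1319 CPM in w1118 (log2 fold change -0.33, 95% interval -0.75 to 0.09, edgeR adjusted p = 0.356). VhaSFD was at 537, 667, 703 and 718 CPM in ft null, against 772 and 797 CPM in w1118 (-0.26, -0.59 to 0.07). Replicate 1 was again the lowest ft null library for both. The accessory gene VhaAC45 was at 566, 644, 672 and 693 CPM in ft null, against 721 and 846 CPM in w1118 (-0.28, -0.59 to 0.02, edgeR adjusted p = 0.282). Its groups did not overlap. ATP6AP2, which encodes a second accessory protein of the pump and does not carry a Vha name, was at 705 ± 56.7 CPM in ft null and 734 ± 35.0 CPM in w1118 (log2 fold change -0.06, edgeR adjusted p = 0.847).

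In 4 further genes of the set ft null replicate 1 was again the lowest library. Vha44, the C subunit gene, was at 316, 415, 441 and 464 CPM in ft null, against 465 and 488 CPM in w1118 (-0.22, -0.60 to 0.16), and the groups met without overlapping. Vha26, of the peripheral stalk, was at 990, 1209, 1252 and 1382 CPM in ft null, against 1328 and 1527 CPM in w1118 (-0.24, -0.60 to 0.12), with ft null replicate 4 above w1118 replicate 1. VhaAC39-1, the d subunit gene, was at 554, 646, 662 and 669 CPM in ft null, against 722 and 689 CPM in w1118 (-0.16, -0.44 to 0.13). VhaPPA1-1, the shorter gene of the rotor ring, was at 573, 644, 597 and 674 CPM in ft null, against 658 and 744 CPM in w1118 (-0.17, -0.46 to 0.11), where the groups overlapped through ft null replicate 4.

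The small subunit genes Vha13, Vha14-1 and VhaM9.7-b departed from this pattern, whereas Vha36-1 kept ft null replicate 1 as its lowest library. Vha13, of the peripheral stalk, was at 257, 297, 265 and 297 CPM in ft null, against 318 and 242 CPM in w1118 (-0.00, -0.34 to 0.33). Vha36-1, of the rotor shaft, was at 211, 247, 264 and 264 CPM in ft null, against 270 and 247 CPM in w1118 (-0.07, -0.37 to 0.23). For Vha13 the w1118 values lay on either side of all ft null values, and for Vha36-1 the groups overlapped. Vha14-1 was at 129, 160, 158 and 160 CPM in ft null, against 174 and 116 CPM in w1118 (log2 fold change 0.07, 95% interval -0.34 to 0.48). VhaM9.7-b was at 125, 155, 156 and 170 CPM in ft null, against 169 and 113 CPM in w1118 (0.11, -0.32 to 0.54). Both w1118 values bracketed every ft null value of Vha14-1, with w1118 replicate 2 the lowest of the 6 libraries. The same library was lowest for Vha13, VhaM9.7-b, VhaM9.7-a and VhaM9.7-c.

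Among the other tested paralogs, Vha100-4 was at 53.0, 75.7, 79.3 and 95.04 CPM in ft null, against 58.7 and 71.3 CPM in w1118 (log2 fold change 0.22, 95% interval -0.28 to 0.72). The ft null libraries alone spanned the whole range. VhaM9.7-c, an e subunit paralog, was at 20.1, 18.6, 18.2 and 17.2 CPM in ft null, against 18.6 and 15.9 CPM in w1118 (0.10, -0.21 to 0.41). VhaM9.7-a, of the same subunit, was at 10.4, 12.96, 12.98 and 14.7 CPM in ft null, against 12.2 and 7.43 CPM in w1118 (0.37, -0.16 to 0.90). Vha68-1, the A subunit paralog, was at 248, 278, 259 and 273 CPM in ft null, against 222 and 286 CPM in w1118 (0.06, -0.25 to 0.37). Vha100-1 was at 206, 191, 186 and 180 CPM in ft null, against 174 and 203 CPM in w1118 (0.02, -0.25 to 0.29). None of these 5 separated the genotypes.

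**Figure D3:**
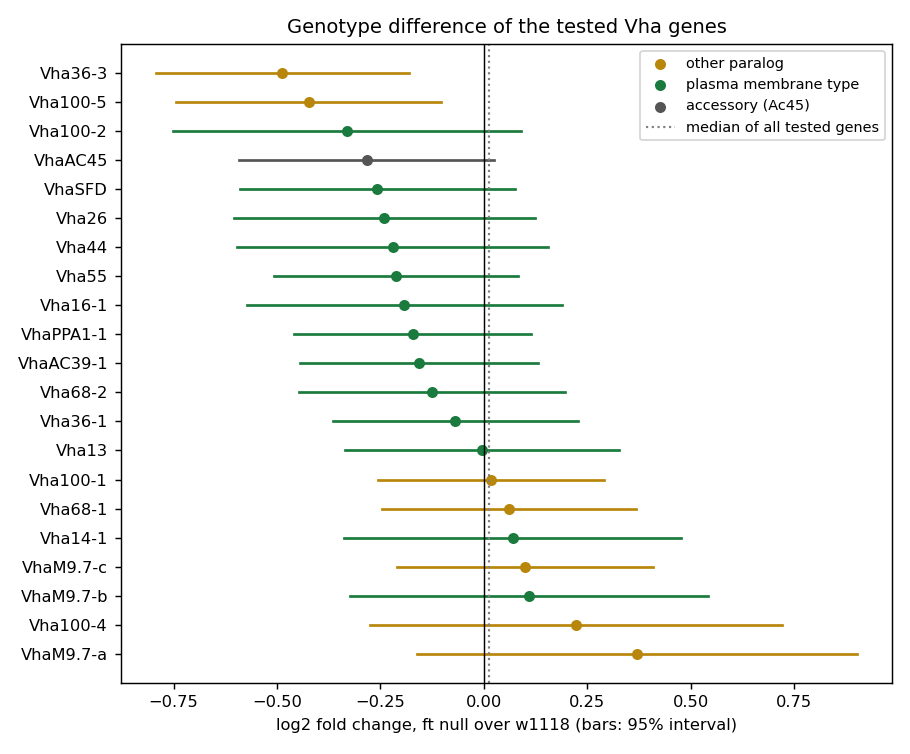
Log2 fold change of the 21 tested Vha genes, ft null over w1118, with 95% intervals as bars and the class of each gene in colour; the dotted line is the median of all tested genes (0.01). The intervals of Vha36-3 and Vha100-5 lie below 0, and those of the other 19 genes include 0.

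The plasma membrane type genes were low together in ft null replicate 1. Relative to each gene's mean log2 CPM over the 6 libraries, all 13 were below 0 in ft null replicate 1 (median -0.24), and 10 of the 13 had their lowest value there. The medians were -0.02, 0.02 and 0.09 in ft null replicates 2, 3 and 4, and 0.11 and 0.19 in w1118 replicates 1 and 2. Without ft null replicate 1 the median log2 fold change of the 13 was -0.11, and without both ft null replicate 1 and w1118 replicate 2, which leaves 1 control and was added after the data were seen, it was -0.08. Without w1118 replicate 1 it was -0.26. The within-genotype range of these medians, from -0.24 to 0.09 in ft null, exceeded the difference between the genotypes. Vha genes outside the 13 were also low in ft null replicate 1, with a median of -0.15 for the 7 tested other paralogs and -0.28 for VhaAC45.

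Markers of several tissues varied in the same libraries. Malpighian tubule markers (15 of 16 tested, with Uro at 0 to 2 reads) had a median deviation of -0.44, -0.05, 0.09 and 0.15 in ft null and -0.03 and 0.37 in w1118, and their summed level was 1163 to 1400 CPM in ft null and 1227 to 1582 CPM in w1118. Neuron markers (10 tested) had median deviations of -0.28 to 0.10 in ft null and -0.02 and 0.26 in w1118, with sums of 1384 to 1658 CPM in ft null and 1464 and 1871 CPM in w1118. Muscle markers (10 tested) ran from -0.25 to 0.07 in ft null and stood at 0.14 and 0.17 in w1118, with sums of 42329 to 51081 CPM in ft null and 49051 and 54926 CPM in w1118. These 3 lists were lowest in ft null replicate 1 and highest in w1118 replicate 2. Other lists ran otherwise: the median deviation of epidermis and cuticle genes was 0.26, 0.22, -0.07 and 0.02 in ft null and -0.14 and -0.08 in w1118, and that of lysosome genes was 0.09, 0.08, 0.05 and 0.06 in ft null and -0.10 and 0.01 in w1118. Both were highest in ft null replicate 1. Their part in the Vha levels was not tested, and in whole embryos fewer cells of a type and less RNA per cell cannot be told apart. edgeR and limma voom called 0 genes of these 3 lists, and DESeq2 called 2 muscle genes lower (3.92% of all tested genes). At an unadjusted p under 0.05 in edgeR, 1 tubule gene was higher and 2 were lower, 3 neuron genes were lower and 2 muscle genes were lower, against 9.92% of all tested genes higher and 10.2% lower. Median log2 fold changes were -0.11 (tubule, 11 of 15 below 0), -0.20 (neuron, 7 of 10) and -0.10 (muscle, 7 of 10), against 48.1% of all tested genes below 0. All ft null values lay below both w1118 values in 4 tubule, 3 neuron and 4 muscle genes (16.4% of all tested genes). They lay above both in 1 tubule gene (15.1%). In CPM, without division by length, the highest members in ft null were Ncc69, a cation-chloride cotransporter gene of the tubule list (327 ± 35.3 CPM in ft null and 319 ± 71.8 CPM in w1118), brp, a gene of the presynaptic active zone (256 ± 23.8 CPM in ft null and 215 ± 87.5 CPM in w1118, where Syx1A and Vmat were higher), and the muscle actin gene Act57B (15624 ± 1273 CPM in ft null and 18077 ± 304 CPM in w1118).

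**Figure D4:**
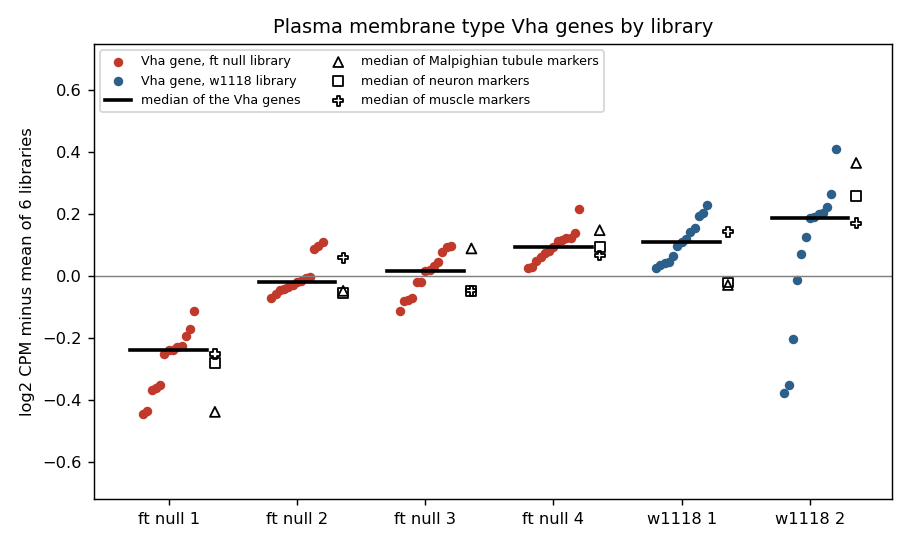
Log2 CPM of each of the 13 plasma membrane type Vha genes minus its mean over the 6 libraries, by library (ft null left, w1118 right), with the median as a black line and the median of 3 marker lists as open symbols. All 13 genes lie below 0 in ft null replicate 1, where the 3 marker lists are also lowest, and the genes of w1118 replicate 2 spread from -0.38 to 0.41.

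The difference between w1118 replicates 2 and 1 followed exon length, and it does not show which of these libraries carries the trend. Log2 CPM of replicate 2 minus replicate 1 was -0.58 for Vha14-1 (659 bases of exon), -0.58 for VhaM9.7-b (1216 bases) and -0.40 for Vha13 (943 bases). It was 0.20 for Vha26 (2926 bases) and 0.37 for Vha100-2 (3222 bases). Departures included VhaPPA1-1, at 0.18 with 1352 bases, Vha100-5, at 0.005 with 2918 bases, and the longest gene, Vha44, at 0.07 with 4023 bases. Across the 21 tested Vha genes Spearman's rho between length and this difference was 0.71, and across all 11508 tested genes with a length it was 0.57; the genes share the same libraries. The median difference over all tested genes was -0.49 under 800 bases, -0.25 from 800 to 1500, -0.02 from 1500 to 3000 and 0.225 at 3000 bases or more. In ft null replicate 1, set against the mean of replicates 2 to 4, the 13 plasma membrane type genes had a median of -0.30. All 13 were below 0, while all tested genes had a median of -0.01. The low level was not particular to these 13, since 19 of the 21 tested Vha genes were below 0 (median -0.29). The lowest was the other paralog Vha100-4 (-0.65), and Vha100-1 (0.15) and VhaM9.7-c (0.16) were above 0. Spearman's rho between length and that difference was -0.71 over the 13 genes, -0.33 over the 21 tested Vha genes and 0.10 over all 11508 genes.

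Among the plasma membrane type genes the genotype values differed by length too. The 5 plasma membrane type genes with under 1500 bases of exon had a median log2 fold change of -0.00, and the 8 longer ones had -0.22, with all 8 below 0. Spearman's rho between length and log2 fold change was -0.86 over these 13 genes, -0.53 over the 21 tested Vha genes and -0.14 over all 11508 genes. Other paralogs departed from it, such as the short Vha36-3 (1294 bases, -0.49) and the long Vha100-4 (2728 bases, 0.22). After removal of the length trend from every library, the median over all 13 was -0.18 and 0 of them were called. Vha14-1 then stood at -0.04 and VhaM9.7-c at -0.00.

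**Figure D5:**
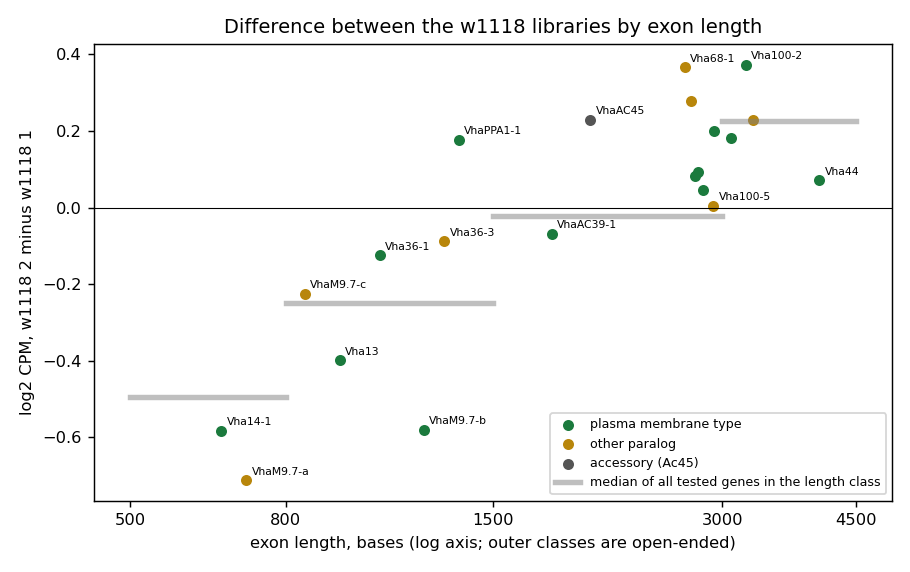
Difference in log2 CPM between the w1118 libraries (replicate 2 minus replicate 1) for the 21 tested Vha genes against exon length in bases (log axis); grey bars give the median of all tested genes in 4 length classes, from -0.49 under 800 bases to 0.225 at 3000 bases or more. The short genes VhaM9.7-a and Vha14-1 lie lowest and the long Vha100-2 highest, while the longest, Vha44, lies at 0.07.

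Genes that work with the pump were listed and tested in the same fit. Of 5 tested candidates for pump assembly, 0 were called by edgeR, DESeq2 or limma voom and 0 passed an unadjusted 0.05 in edgeR. Rbcn-3A, a subunit of the rabconnectin complex that promotes V-ATPase assembly, was at 431 ± 27.8 CPM in ft null and 469 ± 108 CPM in w1118 (log2 fold change -0.12). Its partner Rbcn-3B was at 135 ± 7.18 CPM in ft null and 131 ± 35.6 CPM in w1118. Mitf, the fly transcription factor known to activate V-ATPase and lysosomal genes, was at 45.8, 58.6, 61.0 and 66.8 CPM in ft null, against 56.2 and 60.5 CPM in w1118 (log2 fold change -0.01, edgeR adjusted p = 0.989). Its ft null values enclosed both w1118 values.

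Of 21 lysosome genes, Mitf among them, edgeR and limma voom called 0 and DESeq2 called 1 higher (4.48% of all tested genes). At an unadjusted p under 0.05 in edgeR, 4 were higher and 0 lower (9.92% and 10.2% of all tested genes), and the median log2 fold change was 0.14. Sap-r, which encodes saposin-type activators of lipid breakdown and had the highest CPM of the list, was at 694 ± 29.8 CPM in ft null and 583 ± 149 CPM in w1118 (edgeR adjusted p = 0.424). All 4 ft null values lay above both w1118 values in 8 of the 21, against 15.1% of all tested genes. Of 7 genes of the lysosomal TORC1 branch, 0 were called by edgeR or limma voom, 1 was called higher by DESeq2 (4.48% of all tested genes), 1 was higher at an unadjusted 0.05 in edgeR (9.92%), and the median was -0.03. The highest CPM of this list was that of path, an amino acid transporter gene, at 184 ± 13.2 CPM in ft null and 131 ± 8.75 CPM in w1118 (log2 fold change 0.49, edgeR adjusted p = 0.0609). The plasma membrane type Vha genes and the lysosome list thus had medians of opposite sign; the difference was not tested.

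In the list of epithelial ion and water transport, edgeR called 3 genes. Of 23 tested members 2 rose (2.15% of all tested genes), 1 fell (2.15%) and 20 did not pass. limma voom also called 2 higher and 1 lower, and DESeq2 called 3 higher and 1 lower (4.48% and 3.92% of all tested genes). The list had a median log2 fold change of -0.03. Nhe2, a sodium-proton exchanger gene, was at 121, 142, 134 and 160 CPM in ft null, against 65.5 and 92.0 CPM in w1118 (0.83, SE 0.174, edgeR adjusted p = 0.0399). Prip, an aquaporin gene, was at 42.0, 47.3, 41.1 and 42.6 CPM in ft null, against 27.7 and 26.5 CPM in w1118 (0.67, SE 0.112, edgeR adjusted p = 0.0169). CAH2, a carbonic anhydrase gene, fell to 135, 150, 126 and 135 CPM in ft null, against 192 and 221 CPM in w1118 (-0.60, SE 0.117, edgeR adjusted p = 0.0309). The 3 genes kept their direction without each library in turn, which their separation fixes. Prip kept its call when ft null replicate 1 or 4 was left out and lost it for each of the other 4 libraries (edgeR adjusted p up to 0.0848). Nhe2 and CAH2 kept theirs only when ft null replicate 1 was left out (adjusted p up to 0.141 and 0.139 for the other 5).

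Atpalpha, which encodes the sodium pump of basolateral membranes, had the highest CPM of that list (2993 ± 159 CPM in ft null and 3047 ± 687 CPM in w1118), with a log2 fold change of -0.03 (edgeR adjusted p = 0.951); it is named outside the naming rule, after its values were seen. Of 5 markers of the acid-secreting copper cells of the midgut, 0 were called by edgeR or limma voom and DESeq2 called 1 higher (4.48% of all tested genes), with a median of -0.03. At an unadjusted p under 0.05 in edgeR, 1 was higher and 1 lower (9.92% and 10.2% of all tested genes). CAH1, a carbonic anhydrase gene with the highest CPM of this list, averaged 179 ± 26.3 CPM in ft null and 124 ± 4.77 CPM in w1118 (edgeR adjusted p = 0.102).

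Of 10 epidermis and cuticle genes edgeR called 1 higher and 0 lower (2.15% each of all tested genes), limma voom 1 higher and DESeq2 2 higher (4.48%). The edgeR call was the cuticle protein gene Cpr97Eb, with 39.2 ± 3.05 CPM in ft null and 20.6 ± 0.984 CPM in w1118 (log2 fold change 0.93, edgeR adjusted p = 0.00561), and it was not kept without w1118 replicate 2 (adjusted p = 0.0525). The list had a median of 0.22, and its summed level was 14174 to 18495 CPM in ft null and 13231 and 15025 CPM in w1118. Of 13 testis and germline genes 6 were tested. None of the 6 was called by edgeR, DESeq2 or limma voom, 1 was lower at an unadjusted 0.05 in edgeR (10.2% of all tested genes), and the median was -0.16. The highest was bol, a gene of meiotic entry in the male germline, with 188 ± 6.32 CPM in ft null and 222 ± 11.7 CPM in w1118.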

How the data were processed

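Values for all 6 libraries came from a table of estimated counts that the authors deposited without normalization. The submitters' processing notes name Salmon 1.80, Trimmomatic 0.33, FastQC 0.10, edgeR and the build dm6, and options and an annotation release are not stated in the sources at hand. Non-whole values made up 29.6% to 36.1% of each library, and all values were rounded for the count tests. Per the labels' protocols, the SMARTer Ultra Low RNA kit was used.

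After filterByExpr and TMM scaling, genotype was the single term of edgeR's quasi-likelihood test (edgeR 4.0.16, R 4.3.3), with Benjamini-Hochberg adjustment over 11542 genes and calls under 0.05. Standard errors are the log2 fold change over the square root of F, with 95% intervals from the t distribution. The common biological coefficient of variation was 18.15%. Log2 CPM used a prior count of 2. Exon lengths and positions came from the Ensembl annotation in dm6 coordinates, matched by ID for 31 Vha genes and by symbol for Vha44. It also holds VhaAC45RP, not analysed here.

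Alternatives were DESeq2 1.42.0, limma voom (3.58.1), RLE factors, no filter, other lengths, leaving out each library, and replicates 1 and 2 with and without a replicate block. The fits were also run on simulated counts, drawn independently for each gene. These counts held no length trend and no shift shared by genes of a library, so they cannot show how the fits behave under either. The members, their classes, which rest on general knowledge of the fly pump, and 10 gene lists (120 of 135 entries matched) were chosen with earlier results of these data known. Named genes were every Vha gene and, from each list, called members or else the one with the highest mean CPM in ft null, and Mitf. Other names (ft, ATP6AP2, Rbcn-3B, Uro, Atpalpha, Syx1A, Vmat, the spermatogenesis markers and genes that overlap Vha exons) fall outside this rule and were named with their values known.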

Additional observations from a re-analysis of the deposited data

Results flagged for a closer look

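Vha14-1, the F subunit gene, stood at 129 CPM in ft null replicate 1, while the other ft null libraries held 158 to 160 CPM, a gap that is 0.925 of the whole range of the 4 libraries. The value was picked out because that gap exceeds the 95% critical value of Dixon's test for 4 samples. In all, 22 groups of 4 ft null values were examined and 1 was picked out; chance flags about 1 in 20 groups. ft null replicate 1 was also the lowest ft null library for the other 12 plasma membrane type genes.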

How the results depend on the processing

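edgeR called 248 genes higher and 248 lower in ft null; DESeq2 called 517 and 453, and replicates 1 and 2 without a block 131 and 117. Leaving out 1 library each gave 101 to 425 higher and 72 to 381 lower, and leaving out both ft null replicate 1 and w1118 replicate 2 gave 477 higher. The replicate block on replicates 1 and 2 gave 231 and 262, with 0 Vha genes called and a plasma membrane type median of -0.24. The numbers were not taken to pair libraries, since the labels do not say that replicate numbers share a collection. Differences between replicates 1 and 2 of the 2 genotypes correlated at 0.0948 across genes, a single value that cannot decide whether libraries were paired. Vha genes called lower were 1 in DESeq2 and 1 with length-trend offsets, Vha36-3 both times, and 0 in the other 12 alternatives; 0 were called higher in any of the 14. The median of the plasma membrane type moved between -0.26 and -0.11 when 1 library was left out; that of the other paralogs (0.06) lay between -0.0923 and 0.0713, the lowest without w1118 replicate 1. The difference in plasma membrane type share ran from -0.390 to -0.157 points without 1 library each and was -0.497 with the block.

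Of 294 single-gene values in alternative fits, 20 had the opposite sign, and those 20 were not called. Leaving out 1 library each, the log2 fold changes ran from -0.185 to 0.209 for Vha13, -0.187 to 0.391 for Vha14-1, -0.147 to 0.429 for VhaM9.7-b, -0.00300 to 0.219 for VhaM9.7-c, -0.0923 to 0.141 for Vha100-1 and -0.111 to 0.261 for Vha68-1, the extremes falling without 1 or the other w1118 library. Vha13 was at 0.00282 without the filter and 0.0112 in limma voom. With length-trend offsets Vha14-1 was at -0.0446 and VhaM9.7-c at -0.000358. Without ft null replicate 1 and w1118 replicate 2 together, VhaM9.7-b was at -0.0788, VhaM9.7-c at -0.0604 and Vha14-1 at -0.132. With replicates 1 and 2 unblocked, Vha14-1 was at -0.00148, VhaM9.7-b at -0.00651 and Vha100-4 at -0.0144, and with the replicate block Vha100-4 was at -0.0309. The cause of these changes was not tested. Depth limits the 11 near-silent paralogs.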

Other observations

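The 32 Vha genes together took 1.16%, 1.37%, 1.45% and 1.502% of all estimated counts in the ft null libraries and 1.59% and 1.61% in w1118, without overlap. On the TMM scale their sum was 11756, 14111, 14205 and 15297 CPM in ft null and 15089 and 16424 CPM in w1118, where ft null replicate 4 exceeded w1118 replicate 1. Exon overlap on the opposite strand was found for Vha44, which shares 148 exonic bases with Hmgs. That gene stood at 465 ± 103 CPM in ft null and 403 ± 46.7 CPM in w1118. The overlap is 3.68% of the Vha44 exons, and reads from it cannot be told apart without strand.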
